A study of Homo sapiens with 11 samples.

Results

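The genes described are 10 markers of the dedifferentiated, invasive state of melanoma and of its neural crest origin: NGFR, AXL, EGFR, SOX9, NT5E, TGFBI, WNT5A, DKK1, PDGFRB and MET. They were taken from a list given by name, which was chosen with earlier results of these data known. They are 10 of the 61566 genes that could be counted. All 10 were among the 17039 genes with enough reads to be tested. The cells were SK-MEL-103 (labelled SK-MEL103), a human melanoma line long kept in culture, and their poly(A) RNA was sequenced. Cells were kept for 6 days in the solvent DMSO (4 samples), in 0.25 µM etoposide (4 samples) or in 0.5 µM tozasertib (3 samples, replicates 1, 2 and 4), and on day 3 the medium was changed and each agent added again. Etoposide traps topoisomerase II on broken DNA and tozasertib inhibits the Aurora kinases of mitosis. The labels call the cells of both drug groups senescent and the DMSO cells non-senescent. All groups share this 1 cell line, 1 dose per drug and 1 time point, and every comparison with DMSO uses the same 4 DMSO samples. Whether the replicates came from separate cultures is not stated, so a p-value here covers the spread of these samples alone and that spread could be technical.

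Melanocytes arise from the neural crest, a migratory cell population of the embryo, and melanoma cells can move between a pigmented, MITF-driven state and a dedifferentiated state that has lost pigment genes. The dedifferentiated state is known for the neurotrophin receptor NGFR, for receptor tyrosine kinases such as AXL, EGFR, PDGFRB and MET, for the neural crest factor SOX9, and for secreted or surface proteins such as WNT5A, DKK1, TGFBI and NT5E. Cells in this state are known to be invasive and to tolerate inhibitors of the RAF and MEK kinases.

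The label of the list was checked against the levels in DMSO. Levels are given as CPM, reads of a gene per 1000000 reads of the sample after TMM scaling, which adjusts libraries for their make-up. Among the pigment genes, MLANA had no read in any of the 11 samples, where 3 reads, the limit that a count of 0 allows, would stand at 0.0531 to 0.108 CPM per sample. TYR, the enzyme that starts melanin synthesis, had 2 reads over the 4 DMSO samples and 0 in the drug groups, and DCT had 11. SOX10, which neural crest and melanocytes share, stood at 513 ± 26.3 CPM (SD, n = 4) and MITF, the melanocyte master regulator, at 7.67 ± 0.891 CPM. NGFR, AXL, NT5E and TGFBI were each at 460.2 CPM or more in every DMSO sample. The other markers were lower, with DMSO means of 83.9 CPM for MET, 78.9 for SOX9 and 41.8 for EGFR. DKK1 had a mean of 36.2 CPM, WNT5A 27.4 and PDGFRB 3.00. Cells without drug thus carried only a part of the markers at high levels, and MLANA, TYR and DCT at or near 0. Not all melanocyte genes were silent, as RAB27A had a DMSO mean of 39.3 CPM, RAB38 23.8 and MC1R 5.47. Total counts were between 28863009 and 32957818 reads in DMSO samples, 28547842 and 40170233 in etoposide samples, and 27882689 and 56534763 in tozasertib samples. Mitochondrial genes took 2.08 to 3.74% of reads in DMSO samples, 3.45 to 5.29% in etoposide samples and 3.79 to 4.77% in tozasertib samples. Libraries of DMSO replicates 1 and 4 stood apart by gene length. The Spearman correlation across genes between a gene's deviation from its group mean and its length was -0.476 in replicate 1 (long genes low), 0.125 in replicate 2, 0.223 in replicate 3 and 0.4 in replicate 4 (long genes high), while the 7 drug-treated samples lay between -0.076 and 0.111. In bulk RNA, fewer cells of a kind and less RNA per cell cannot be told apart.

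The promoters of these genes were searched for the letters bound by factors that are known to drive the dedifferentiated state (AP-1 and TEAD) and the pigmented state (the MITF E-box). RefSeq windows on GRCh38.p14, from 250 bases before to 50 bases after a start site, were found for 8 of the 10 genes, with 11 windows in all. NGFR and SOX9 had no entry. TGANTCA, the AP-1 letters, stood in 1 of the 11 windows, GGAATG or its reverse CATTCC, the TEAD letters, in 3, and CATGTG or CACATG, the E-box letters, in 2, both strands being read. Of all 35116 windows, 7.71% held the AP-1 letters, 14.0% the TEAD letters and 11.1% the E-box letters. The sites fell in DKK1 and in the second windows, at internal start sites, of AXL and EGFR. The E-box match of EGFR overlaps its first AP-1 match by the letters TG. The matches to AP-1 and TEAD are shown because they are all the matches to these 2 factors in the 11 windows, with the matching letters in capitals and each run read 5′ to 3′ on the plus strand, which is the strand of all 3 genes.
DKK1, TEAD, chr10:52314220-52314249: cccaaggggccGGAATGctccgggcccgcg
AXL, TEAD, chr19:41226532-41226561: agactttgcacCATTCCactccctccgctg
EGFR, AP-1, chr7:55109596-55109625: gctttcccatgTGAGTCAttgctagtcaga
EGFR, AP-1, chr7:55109692-55109721: gtataaactttTGACTCAcaggacaaattc
EGFR, TEAD, chr7:55109714-55109743: acaaattctatCATTCCtttgggcctagga
Nothing in these data measures binding at these places.

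With etoposide, 5 of the 10 markers rose (NGFR, AXL, TGFBI, WNT5A and DKK1), 4 fell (EGFR, SOX9, NT5E and PDGFRB) and MET was not called. With tozasertib, NGFR, AXL, TGFBI, WNT5A and DKK1 rose (5), EGFR, SOX9, NT5E and PDGFRB fell (4) and MET was not called. NGFR rose more than 2-fold with either drug, and NT5E fell 5.05-fold with etoposide. A gene was called at a Benjamini-Hochberg adjusted p under 0.05 in edgeR's quasi-likelihood test over all genes. Of all tested genes 58.3% were called with etoposide (27.7% higher and 30.7% lower) and 59.3% with tozasertib (29.9% higher and 29.4% lower). The median log2 fold change of the 10 genes was 0.10 with etoposide and 0.19 with tozasertib, beside -0.01 and 0.02 over all tested genes. The samples of 2 groups did not overlap for 7 of the 10 genes with etoposide and for 7 with tozasertib, as for 51.2% and 59.8% of all tested genes. A called difference of at least 2-fold was found for 6 of the 10 with etoposide and 3 with tozasertib, beside 17.8% and 19.5% of all tested genes. Without both DMSO libraries that stood apart, 5 were called higher and 4 lower with etoposide, and 6 higher and 4 lower with tozasertib, with MET as the sixth.

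**Figure D1:**
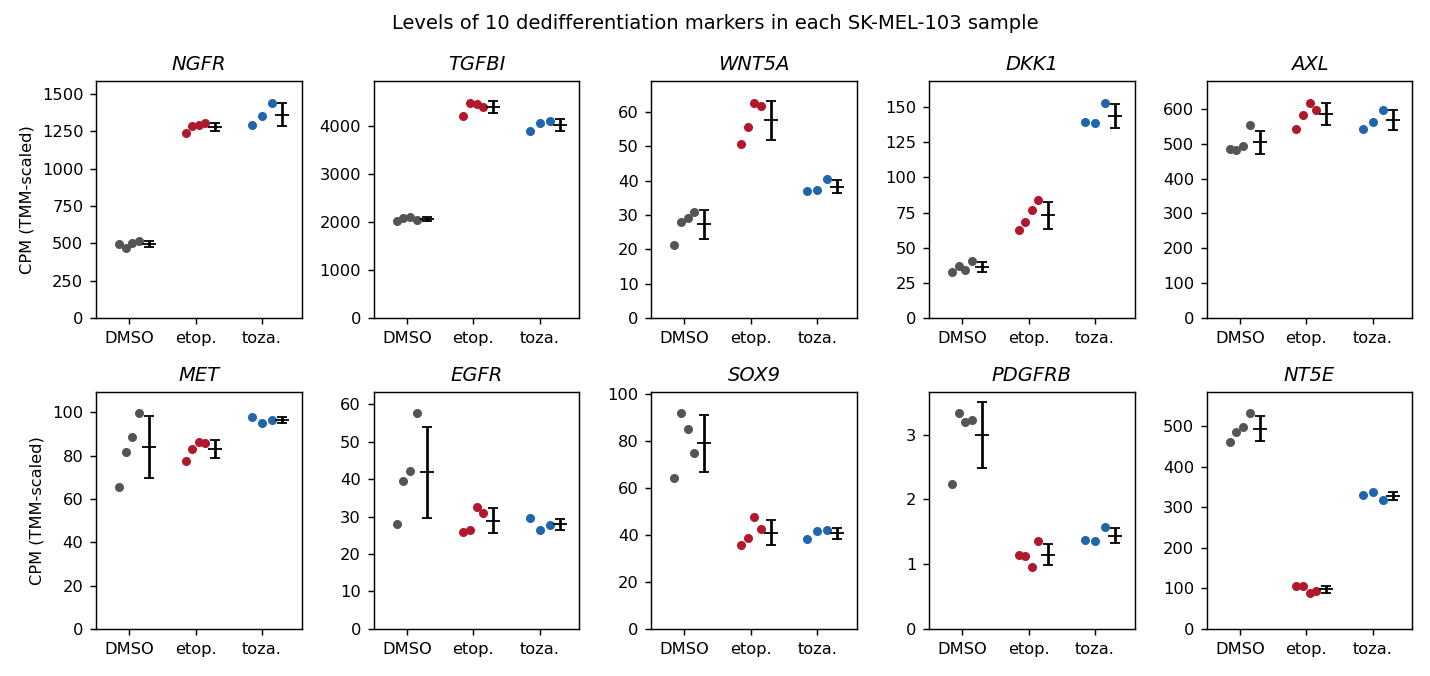
Level of each of the 10 markers in CPM (y axes, linear, 1 panel per gene) in each DMSO, etoposide and tozasertib sample (points), with the mean and SD of each group. NGFR lies at 468 to 514 CPM in DMSO and at 1241 or more with either drug, and NT5E lies at 87.6 to 106 with etoposide, below both other groups.

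NGFR, the neurotrophin receptor p75 and a widely used marker of neural crest-like melanoma cells, lies on GRCh38 chromosome 17 at 49495293 to 49515008 (plus strand). Its level was 499, 468, 500.2 and 514 CPM in DMSO replicates 1 to 4, 1241, 1289, 1291 and 1304 in etoposide replicates 1 to 4 and 1293, 1350.1 and 1443 in tozasertib replicates 1, 2 and 4. The lowest drug-treated sample stood more than 2-fold above the highest DMSO sample, so the groups did not overlap. NGFR rose 2.59-fold with etoposide (log2 fold change 1.37 ± 0.05 SE, adjusted p = 2.51e-10) and 2.75-fold with tozasertib (1.46 ± 0.06, adjusted p = 2.89e-10). Between the drugs the difference was 0.09 on the log2 scale, with a 95% interval of -0.03 to 0.21.

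AXL, a receptor kinase of the TAM family that binds GAS6 (chromosome 19, 41219223 to 41261766, plus strand), stood at 484, 483, 492 and 554 CPM in DMSO, 542, 583, 618 and 596 with etoposide and 543, 563 and 597 with tozasertib. DMSO replicate 4 was above the other DMSO samples and inside the range of both drug groups, so the groups overlapped. AXL rose by 0.22 ± 0.06 on the log2 scale with etoposide (adjusted p = 0.00923) and by 0.17 ± 0.07 with tozasertib (adjusted p = 0.0397). The tozasertib call was lost in 12 of 21 other analyses, among them each one that left out DMSO replicate 1, 2 or 3, etoposide replicate 2 or 4, or any tozasertib replicate, with log2 fold changes of 0.06 to 0.26 and adjusted p of 0.00487 to 0.41 over the 21.

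EGFR, the epidermal growth factor receptor (chromosome 7, 55019017 to 55211628, plus strand), had the widest DMSO spread of the 10 genes: 28.1, 39.4, 42.3 and 57.6 CPM. With etoposide it stood at 25.8, 26.5, 32.6 and 30.9 CPM and with tozasertib at 29.5, 26.3 and 27.8. DMSO replicate 1 lay within the range of both drug groups and the other 3 DMSO samples lay above all drug-treated samples. EGFR fell by 0.53 ± 0.16 with etoposide (adjusted p = 0.0133) and by 0.58 ± 0.18 with tozasertib (adjusted p = 0.0125), and both calls were kept in the 21 other analyses. The size varied with the analysis. Without DMSO replicate 4 the log2 fold changes were -0.34 (adjusted p = 0.0336) and -0.38 (adjusted p = 0.0276). Over the 21 they ran from -0.685 to -0.343 with etoposide and from -0.759 to -0.382 with tozasertib.

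PDGFRB, the receptor of platelet-derived growth factor B and a gene that drug-tolerant melanoma cells can induce (chromosome 5, 150113839 to 150155872, minus strand), was the lowest of the 10. Its level was 2.24, 3.33, 3.20 and 3.23 CPM in DMSO, 1.15, 1.13, 0.955 and 1.36 with etoposide and 1.38, 1.36 and 1.57 with tozasertib, from 34 to 103 reads per sample. Every drug-treated sample was below every DMSO sample. PDGFRB fell 2.62-fold with etoposide (-1.39 ± 0.18, adjusted p = 2.26e-05) and 2.08-fold with tozasertib (-1.06 ± 0.19, adjusted p = 0.000406).

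MET, the receptor of hepatocyte growth factor (chromosome 7, 116672196 to 116798377, plus strand), was the only one of the 10 that passed the test with neither drug. It stood at 65.6, 81.6, 88.7 and 99.6 CPM in DMSO, 77.5, 83.0, 86.5 and 85.7 with etoposide and 97.8, 94.95 and 96.4 with tozasertib. The DMSO samples spanned the whole etoposide range. The log2 fold change was -0.01 with etoposide (95% interval -0.23 to 0.20, adjusted p = 0.923) and 0.20 with tozasertib (-0.03 to 0.43, adjusted p = 0.120). Without DMSO replicate 4 the tozasertib value was 0.30 and passed the test (adjusted p = 0.0127).

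TGFBI, an extracellular matrix protein induced by TGF-β that binds integrins (chromosome 5, 136028988 to 136063818, plus strand), was the most abundant of the 10. Its level was 2023, 2081, 2109.8 and 2046 CPM in DMSO, 4209, 4484, 4446 and 4401 with etoposide and 3885, 4069 and 4109 with tozasertib. The 3 groups did not overlap, and each had a coefficient of variation under 3%. TGFBI rose 2.12-fold with etoposide (1.09 ± 0.05, adjusted p = 7.69e-10) and 1.95-fold with tozasertib (0.96 ± 0.05, adjusted p = 3.82e-09).

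WNT5A, a ligand of β-catenin-independent WNT signalling that is tied to melanoma invasion, and DKK1, a secreted antagonist of the β-catenin-dependent branch, both rose. WNT5A (chromosome 3, 55465715 to 55490539, minus strand) stood at 21.3, 27.97, 29.3 and 30.9 CPM in DMSO, 50.6, 55.6, 62.7 and 61.6 with etoposide and 36.9, 37.4 and 40.4 with tozasertib, and no group overlapped another. It rose 2.10-fold with etoposide (1.07 ± 0.11, adjusted p = 1.44e-06) and 1.396-fold with tozasertib (0.48 ± 0.11, adjusted p = 0.00247). DKK1 (chromosome 10, 52314281 to 52318042, plus strand, with the TEAD match printed above) went the other way between the drugs. Its level was 32.5, 37.01, 34.5 and 40.7 CPM in DMSO, 62.7, 68.5, 76.6 and 83.9 with etoposide and 139, 138 and 153 with tozasertib. The 3 groups stood apart, with tozasertib highest. DKK1 rose 2.01-fold with etoposide (1.01 ± 0.09, adjusted p = 8.22e-07) and 3.96-fold with tozasertib (1.99 ± 0.10, adjusted p = 2.62e-09).

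NT5E, or CD73, the surface enzyme that turns AMP into adenosine (chromosome 6, 85449584 to 85495791, plus strand), had the largest change of the 10 genes with etoposide. It stood at 460.2, 486, 499 and 532 CPM in DMSO, 105, 106, 87.6 and 93.2 with etoposide and 331, 338 and 318 with tozasertib. The 3 groups did not overlap, and tozasertib lay between the other groups. NT5E fell 5.05-fold with etoposide (-2.34 ± 0.07, adjusted p = 3.98e-11) and 1.504-fold with tozasertib (-0.59 ± 0.08, adjusted p = 1.85e-05).

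SOX9, a transcription factor of neural crest and cartilage (chromosome 17, 72121020 to 72126416, plus strand), was the only transcription factor among the 10. Its level was 64.1, 91.7, 84.8 and 75.0 CPM in DMSO, 35.5, 38.4, 47.4 and 42.5 with etoposide and 38.1, 41.4 and 42.2 with tozasertib. All drug-treated samples lay below all DMSO samples. It fell 1.93-fold with etoposide (-0.95 ± 0.11, adjusted p = 7.48e-06) and 1.95-fold with tozasertib (-0.96 ± 0.12, adjusted p = 1.64e-05).

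**Figure D2:**
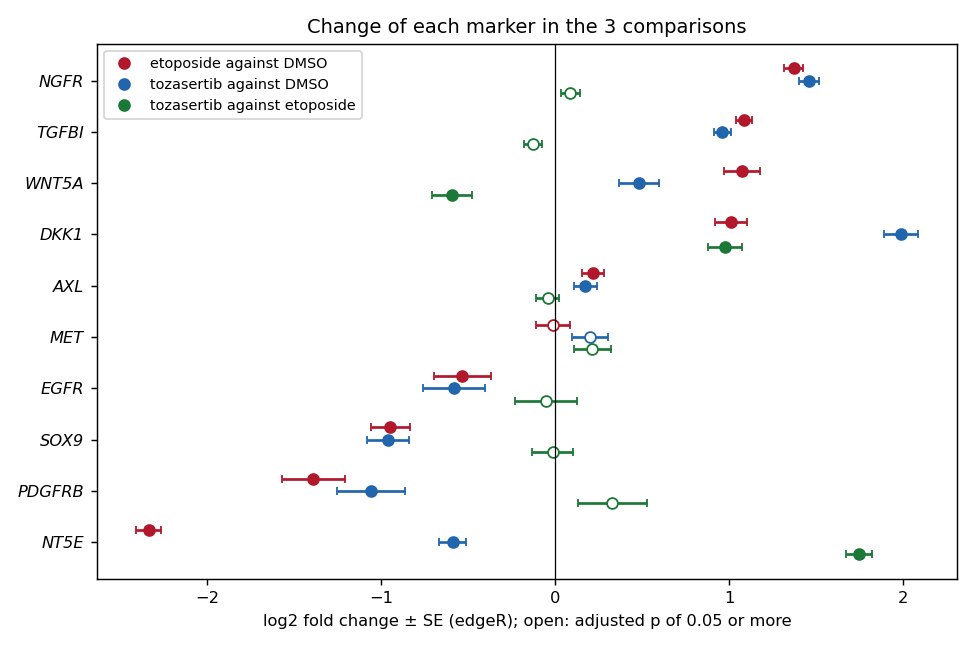
Log2 fold change ± SE (x axis) of each of the 10 markers in etoposide against DMSO, tozasertib against DMSO and tozasertib against etoposide, with filled points where the adjusted p was under 0.05. NT5E lies at -2.34 with etoposide and -0.59 with tozasertib, and DKK1 at 1.01 and 1.99.

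The drugs were then compared with each other. Of the 10 genes, NT5E and DKK1 were higher with tozasertib than with etoposide, WNT5A was lower and 7 were not called. Over all tested genes 5.67% were called higher, 5.45% lower and 11.1% in either direction. NT5E stood 3.36-fold higher with tozasertib (1.75 ± 0.07, adjusted p = 2.63e-08) and DKK1 1.97-fold higher (0.98 ± 0.10, adjusted p = 2.51e-05). WNT5A was 1.51-fold lower (-0.59 ± 0.11, adjusted p = 0.00431). These 3 calls were kept in the 21 other analyses. NT5E was the 1 gene of the 10 with a called difference of at least 2-fold, which 2.45% of all tested genes had.

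For the genes without a call, the 95% intervals of the log2 difference limit how far the drugs could differ, with no adjustment for the number of genes. The interval was -0.27 to 0.24 for SOX9, -0.19 to 0.10 for AXL and -0.43 to 0.33 for EGFR. It was -0.23 to -0.02 for TGFBI, -0.02 to 0.44 for MET and -0.10 to 0.76 for PDGFRB. TGFBI was lower in every tozasertib than in every etoposide sample, and MET and PDGFRB were higher in every one. With the 3 called genes, 6 of the 10 had groups that did not overlap, beside 31% of all tested genes. TGFBI was called by DESeq2 (-0.16, adjusted p = 0.00646) and MET in a fit of the 2 drug groups alone (0.23, adjusted p = 0.00509).

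To compare genes with each other, levels per length were taken from the deposited TPM values, summed over the transcripts of a gene. In DMSO the order was TGFBI (1192 ± 33.2 TPM, SD, n = 4), NT5E (256 ± 37.8), NGFR (167 ± 15.6), AXL (146 ± 25.1), DKK1 (50.01 ± 12.4), SOX9 (27.0 ± 5.50), MET (20.99 ± 5.86), WNT5A (8.38 ± 2.12), EGFR (6.33 ± 2.37) and PDGFRB (1.75 ± 0.814). NGFR and AXL, SOX9 and MET, and WNT5A and EGFR overlapped as neighbours, while the other neighbours did not. TGFBI was at the 99.3 percentile of the tested genes and PDGFRB at the 25.5. With etoposide the order from the second place was NGFR (480.2 TPM), AXL (191), DKK1 (101), NT5E (60.9), MET (24.7), WNT5A (19.8) and SOX9 (15.5), with WNT5A and SOX9 overlapping. With tozasertib DKK1 (214 TPM), AXL (198) and NT5E (195) overlapped as neighbours below NGFR (539.9). NT5E was thus the second of the 10 in DMSO and the fifth with either drug, though its tozasertib level did not stand apart from that of AXL.

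Reads of most of these genes were assigned to 1 main transcript, by the authors' quantification and with no test here. NGFR-201 held 99.9% of the gene's TPM in DMSO and SOX9 has 1 transcript. EGFR-201 held 95.7% ± 2.94 (SD, n = 4) in DMSO, 94.2% with etoposide and 93.6% with tozasertib. MET-202 held 95.2% ± 2.18 in DMSO, 87.9% ± 3.35 with etoposide and 90.8% ± 0.364 with tozasertib, and MET-206 held 3.14%, 10.1% and 7.18%. NT5E-201, the canonical form of CD73, held 66.8% ± 1.95, 62.9% ± 4.96 and 75.2% ± 1.30. Shares that varied widely within a group were those of WNT5A-201 (58.4% ± 29.5 in DMSO), TGFBI-201 (75.7% ± 16.3 in DMSO) and PDGFRB, whose reads were spread over 7 transcripts.

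The spread of these genes over the DMSO libraries was set beside the length trend. Of the 10 markers, 8 were lowest in DMSO replicate 1, as were 36.4% of all tested genes. EGFR, MET, WNT5A, NT5E and DKK1 were lowest in replicate 1 and highest in replicate 4, which held for 5 of the 10 and for 22.8% of all tested genes. EGFR differed 2.05-fold between these samples. The median coefficient of variation of the 10 genes was 12.5% in DMSO, 9.49% with etoposide and 5.13% with tozasertib, beside 13.5%, 8.47% and 6.52% over all tested genes. Without both libraries EGFR was still called with etoposide (-0.50, adjusted p = 0.000625), and MET was called higher with tozasertib (0.17, adjusted p = 0.0278). With the length trend of each library taken out in the fit, an analysis added after these values were seen, EGFR stood at -0.62 and -0.76 with the 2 drugs.

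**Figure D3:**
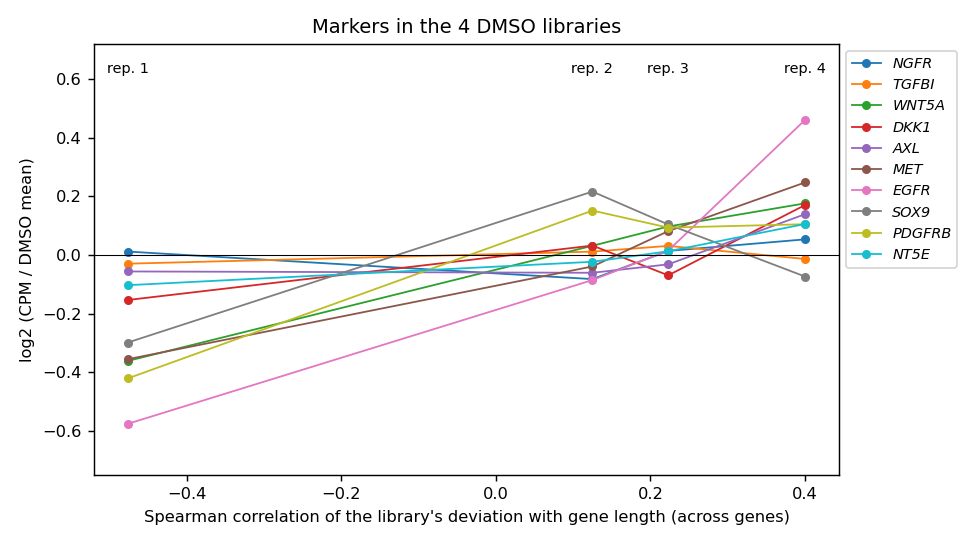
Log2 ratio of each marker's CPM to its DMSO mean (y axis) in the 4 DMSO samples, placed by the Spearman correlation of that sample's gene deviations with gene length (x axis). EGFR and MET run from lowest in replicate 1 (-0.476) to highest in replicate 4 (0.4), while NGFR and TGFBI stay near 0.

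Genes known to work with these markers were taken from 14 other lists of genes by name. ERBB3, ITGA3 and PDGFRA stand in more than 1 list. Where a pair of values follows a gene, they are its log2 fold changes with etoposide and then with tozasertib, against the same DMSO samples. Among 30 other genes of the invasive state, 29 were tested, with 14 higher and 8 lower with etoposide, and 15 higher and 6 lower with tozasertib. The median log2 fold changes were 0.32 and 0.38. SPARC, a matrix protein, rose by 1.47 and 1.24, LOXL2, a collagen cross-linking enzyme, by 1.70 and 1.27, and the integrin chain ITGA3 by 0.89 and 1.05. Among the transcription factors, the AP-1 members FOSL1 (-0.85 and -0.52) and JUN (-0.55 and -0.31) fell with both drugs. TEAD4, SNAI1 and TWIST1 were picked after their values were seen. Mean levels of TEAD4 were 27.3 CPM in DMSO, 13.3 with etoposide and 12.6 with tozasertib. Those of SNAI1 were 6.49, 2.54 and 3.36, and those of TWIST1 15.4, 11.9 and 10.9. ZEB2 rose (0.57 and 0.79), and whether it marks the invasive state in these cells was not tested. ZEB1 was not called (-0.26, adjusted p = 0.0650, and -0.21, adjusted p = 0.154). Without DMSO replicate 1, ZEB1 was called lower (-0.38 and -0.33).

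Of 18 other neural crest genes, 14 were tested, with 4 higher and 5 lower with etoposide and 6 higher and 3 lower with tozasertib (medians -0.28 and -0.02). NGFR and SOX9 went opposite ways, and so did these. L1CAM, an adhesion molecule of migrating neural crest (1.28 and 0.92), the factor TFAP2A (0.88 and 1.07) and SNAI2 (0.96 and 0.58) rose. SOX10 fell from 513 ± 26.3 CPM to 323 ± 8.89 with etoposide (-0.67, adjusted p = 1.14e-07) and 379 ± 3.30 with tozasertib (-0.44, adjusted p = 1.58e-05). ERBB3, the neuregulin receptor and a known SOX10 target, fell by 3.21 and 1.80, and was 2.66-fold higher with tozasertib than with etoposide (1.41, adjusted p = 0.00110), a call lost with counts rebuilt from TPM (0.33, adjusted p = 0.421).

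Of 17 melanocyte genes 6 passed the filter on low counts, with 1 higher and 3 lower with etoposide and 2 higher and 2 lower with tozasertib. RAB38 and RAB27A, GTPases of melanosome transport, fell with both drugs (-1.78 and -1.41, and -0.46 and -0.59). MITF stood at 7.67 ± 0.891 CPM in DMSO, 9.43 ± 0.692 with etoposide and 9.24 ± 0.261 with tozasertib, and was called higher with both (0.30, adjusted p = 0.0185, and 0.27, adjusted p = 0.0393). Its etoposide call was lost in 3 of 21 other analyses: without etoposide replicate 4 (0.25, adjusted p = 0.0601), with counts rebuilt from TPM (adjusted p = 0.0650) and with no filter (adjusted p = 0.0675). It lost its tozasertib call in 12 of 21 other analyses, among them without DMSO replicate 1 (0.20, adjusted p = 0.0895), 2 or 3, etoposide replicate 3 or any tozasertib replicate.

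The ligands of these receptors were measured in the same cells. Of 18 ligands, 13 were tested, with 7 higher and 3 lower with etoposide and 7 higher and 2 lower with tozasertib. PROS1, a TAM receptor ligand, stood at 48.6, 51.9, 51.3 and 52.3 CPM in DMSO, 112, 121, 122 and 127 with etoposide and 137, 149 and 144 with tozasertib. Every drug-treated sample lay above every DMSO sample, and PROS1 was called higher with both drugs (1.24, adjusted p = 8.42e-10, and 1.49, adjusted p = 3.18e-10). GAS6, the ligand of AXL, was called higher with etoposide (0.23, adjusted p = 0.0188), a call lost in 4 of 21 other analyses: with counts rebuilt from TPM (0.0639), without DMSO replicate 2 (0.0657) or 3 (0.0648) or without etoposide replicate 3 (0.0547), these being adjusted p, and was at 0.01 with tozasertib. Among the ligands of EGFR, EGF rose by 2.29 and 2.43 and TGFA fell by 1.41 and 1.30. Their levels differed, with EGF means of 1.70 CPM in DMSO, 8.34 with etoposide and 9.21 with tozasertib. For TGFA the means were 115, 43.1 and 46.5 CPM. AREG fell by 2.05 with etoposide and stood at -0.40 with tozasertib without passing the test, and HBEGF was near 0 with both (-0.08 and 0.01). BTC rose with tozasertib (1.16) and was at -0.02 with etoposide.

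BDNF, a ligand of NGFR, rose by 0.27 and 0.54, the first of which lost its call without both DMSO libraries of the length trend (adjusted p = 0.0803). Among the platelet-derived factors, PDGFB, the main ligand of PDGFRB, had 15 reads over the DMSO samples, 190 with etoposide and 123 with tozasertib. It rose by 3.43 and 2.99 and PDGFD, which also binds PDGFRB, by 0.58 and 0.76, so that these ligands and their receptor moved in opposite directions. PDGFA fell by 0.77 and 0.90. PDGFC was not called (-0.07 and -0.10), was called lower without DMSO replicate 1 (-0.13 and -0.16), and was called higher (0.32 and 0.39) with counts rebuilt from TPM. HGF, the ligand of MET, had 1 read in DMSO, 2 with etoposide and 0 with tozasertib and was not tested.

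Receptors related to the 5 listed here gave 3 higher and 2 lower of 12 tested with etoposide, and 5 higher and 3 lower with tozasertib. TYRO3, the TAM receptor next to AXL, fell by 0.55 and 0.96. NTRK3, the neurotrophin-3 receptor, rose by 1.57 and 2.41, NRP2, a co-receptor of semaphorins and VEGF, by 0.84 and 1.08, and ERBB2 by 0.22 with etoposide. Of 16 genes of receptor shedding and turnover, etoposide gave 6 higher and 7 lower, tozasertib 5 higher and 8 lower. The feedback inhibitors of receptor kinase signalling SPRY4 (-3.40 and -2.18), SPRY2 (-1.01 and -0.73) and ERRFI1 (-1.87 and -1.96) fell with both drugs. CBLB, a ubiquitin ligase for receptor kinases, rose (1.404 and 1.38), as did the sheddases ADAM10 (0.31 and 0.34) and ADAM17 (0.29 and 0.38).

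Around WNT5A and DKK1, 27 WNT receptors, antagonists and targets were listed and 22 tested, with 8 higher and 4 lower with etoposide and 8 higher and 5 lower with tozasertib. The Frizzled receptors FZD8 (-3.47 and -2.76) and FZD1 (-1.42 and -1.20) fell, and DKK3 rose beside DKK1 (1.54 and 1.68). FZD7 rose with etoposide (0.82) and was at -0.12 with tozasertib. LEF1, a nuclear partner of β-catenin, fell with tozasertib (-0.24, adjusted p = 0.00597), a call lost with library size alone (adjusted p = 0.0832). ROR1, a WNT5A receptor, and LRP6, the co-receptor that DKK1 blocks, were picked after their values were seen: ROR1 rose by 2.50 and 2.18, and LRP6 stood at 0.01 and 0.15 without a call.

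The adenosine genes around NT5E gave 1 higher and 5 lower of 7 tested with etoposide, and 2 higher and 4 lower with tozasertib. ADA, which removes adenosine, rose by 2.30 and 2.15, and SLC29A1, an adenosine transporter, fell by 1.51 and 1.74. The receptors ADORA1 (-0.67 and -0.996) and ADORA2B (-0.18 and -0.54) fell, though ADORA2B with etoposide lost its call in 4 of 21 other analyses. ADORA2B was also lower with tozasertib than with etoposide (-0.36, adjusted p = 0.00309), whereas NT5E was higher. Of 5 integrin chains that bind TGFBI, 4 rose with etoposide, and with tozasertib 3 rose and 2 fell. ITGA3, ITGAV (0.81 and 0.70) and ITGB1 (0.84 and 0.54) rose with both drugs. ITGB5 rose with etoposide (0.44) and was called lower with tozasertib (-0.16, adjusted p = 0.0223), a call lost in 5 of 21 other analyses, among them without tozasertib replicate 1 (-0.14, adjusted p = 0.112) or 2 (-0.17, adjusted p = 0.0524).

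**Figure D4:**
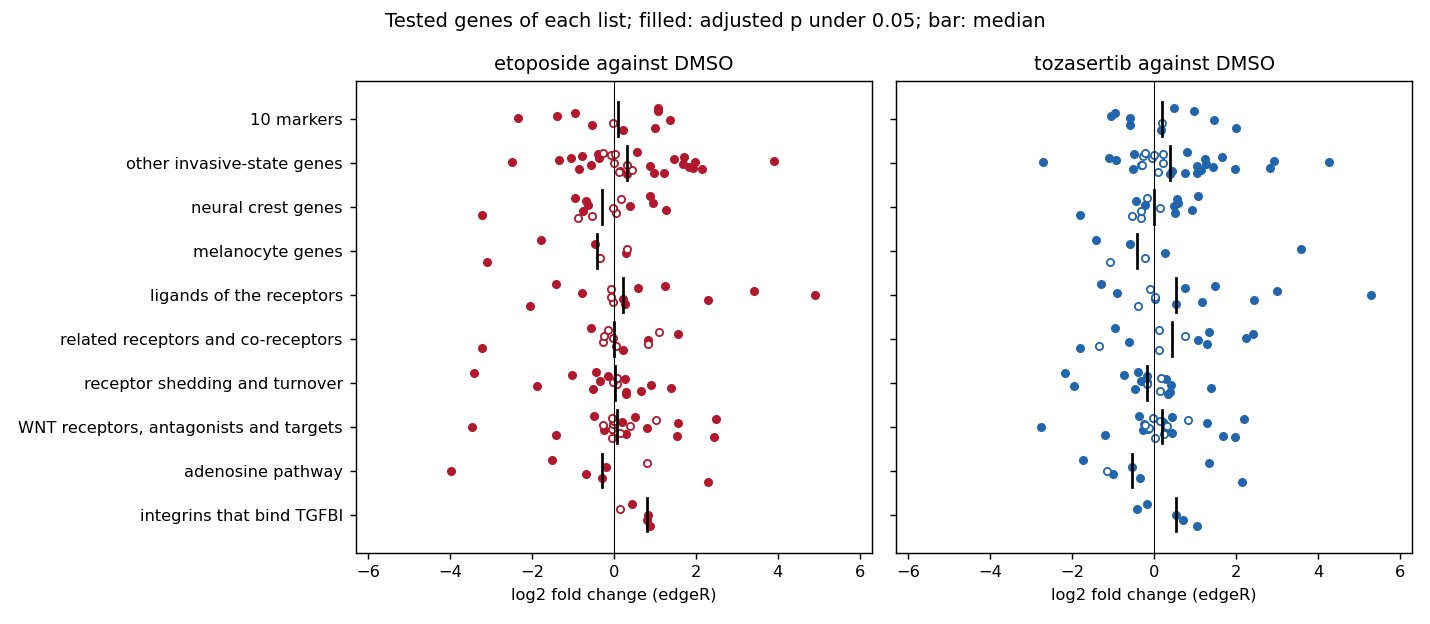
Log2 fold change (x axis) of each tested gene of the 10 markers and of 9 related lists (points, filled where the adjusted p was under 0.05), with a bar at the list's median, for etoposide against DMSO and tozasertib against DMSO. The 10 markers straddle 0 with medians of 0.10 and 0.19, and the integrins that bind TGFBI have medians of 0.81 and 0.54.

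Markers of other cell types were counted beside these results. The summed level of 8 fibroblast markers lay at 49.5 to 58.3 CPM in DMSO samples, 154 to 171 in etoposide samples and 135 to 140.4 in tozasertib samples. Of these 8, 6 were tested, with 3 higher and 1 lower with etoposide and 4 higher and 1 lower with tozasertib. COL1A1 (3.32 and 2.38) and LUM (2.20 and 2.14) rose, TWIST2 fell (-0.55 and -0.64), COL1A2 was not called at a mean below 0.5 CPM in each group, and DCN and THY1 had 10 reads or fewer per group. The 6 keratinocyte markers summed to 48.2 to 68.0, 55.8 to 58.4 and 50.3 to 59.0 CPM, with KRT5 and KRT1 at 0 reads in DMSO and etoposide. Most of that sum was KRT10, with means of 50.9, 51.5 and 48.0 CPM. The 6 immune markers summed to 55.8 to 68.1, 34.8 to 42.2 and 43.3 to 48.3 CPM. Most of that sum was CD68, with means of 62.7, 39.1 and 44.7 CPM. MS4A1 had 0 reads in all 3 groups, and CD3E had 0 in DMSO and etoposide and 1 read with tozasertib. The 5 endothelial markers stayed under 1.7 CPM in sum. The 7 Schwann cell markers summed to 63.3 to 77.1, 44.9 to 67.3 and 81.9 to 94.0 CPM. Their part in the levels of the 10 markers was not tested.

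For each of the 10 genes, the protein-coding genes whose log2 CPM ran most like it over the 11 samples were picked out of 13538, by Pearson correlation. These samples fall into 3 groups, so the value describes likeness over groups and samples that share depth and make-up, and the value after removing the group means is given beside it. Nearest to NGFR was H2AC6 (0.998, within groups 0.536), to TGFBI ASAH1 (0.998, 0.712) and to NT5E IL24 (0.997, 0.613). EGFR ran most like ARID2 (0.988, 0.986), MET like STK4 (0.976, 0.973) and WNT5A like PRKCA (0.993, 0.959), and for these both values were close. EGFR, MET and WNT5A were also lowest in DMSO replicate 1 and highest in DMSO replicate 4, the ends of the length trend. The part of that trend in these correlations was not tested. DKK1 was nearest to TNFRSF10A (0.994, 0.939), AXL to PTPN1 (0.962, 0.913), SOX9 to RAI1 (0.984, 0.911) and PDGFRB to SLC25A32 (0.986, 0.883). No pair of the 10 markers stood among each other's 3 nearest genes.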

How the data were processed

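The authors purified RNA on columns, selected poly(A) RNA and made strand-specific libraries. GRCh38, Salmon 1.9.0, cutadapt 4.7, DESeq2 1.40.2 and R 4.4.2 are listed in the processing notes of the submitters, while the study's methods name another aligner. Salmon's options and its transcript release were not given in the sources used here. Per the file headers, the deposited tables hold estimated counts, TPM and effective lengths per transcript. Of 251645 transcripts, 437 had no match in GENCODE 44 and, holding 0.136 to 0.163% of reads, were left out. Estimated counts were summed to 61566 genes and rounded.

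Genes were tested with edgeR 4.0.16 (quasi-likelihood, two-sided, TMM, filterByExpr, 1 mean per group over 11 samples) in R 4.3.3 and adjusted by Benjamini-Hochberg. The SE was the size of the log2 fold change over the root of F. Alternatives used DESeq2 1.42.0, limma 3.58.1 (voom), other scalings, filters, counts and samples. Scripts were tested on simulated data. No pair of libraries of a group agreed within sampling noise. Intervals are 95% intervals of the fit, and the floor of 3 reads for a count of 0 covers counting error only. Tozasertib replicate 3 was not analysed here.

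The 10 genes and the lists were chosen with earlier results of these data known. The text names the 10 genes, up to 3 called genes per list and comparison with the smallest adjusted p, every tested ligand, SOX10, MITF, ERBB3, ZEB1, ZEB2 and FOSL1, the nearest genes by correlation (log2 CPM, prior count 2), and every called gene where a list has 5 or fewer called genes in a direction, from which examples are given. Some genes that this rule names are not reported here.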

Additional observations from a re-analysis of the deposited data

Results flagged for a closer look

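In 20 groups of 4 samples (10 genes in DMSO and with etoposide) the sample farthest from the others was compared with the range of its group by Dixon's ratio, which chance passes in about 1 of 20 groups, and 2 passed its 95% limit. AXL in DMSO replicate 4 stood at 554 CPM and the other DMSO samples at 483 to 492 (ratio 0.865). Without that sample AXL had a log2 fold change of 0.26 with etoposide (adjusted p = 0.00145) and 0.23 with tozasertib (adjusted p = 0.00487), in edgeR. PDGFRB in DMSO replicate 1 stood at 2.24 CPM and the others at 3.20 to 3.33 (ratio 0.88). Without it PDGFRB had log2 fold changes of -1.51 (adjusted p = 5.89e-06) and -1.18 (adjusted p = 9.86e-05). These 2 libraries are those at the ends of the length trend of the DMSO samples, and the part of that trend in either value was not tested.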

How the results depend on the processing

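Over 21 other analyses, with etoposide against DMSO 5 of the 10 markers were called higher and 4 lower in each. With tozasertib 4 were called lower in each and 4 to 6 higher, the difference lying in AXL and MET. Leaving out 1 sample at a time gave the same range. For tozasertib against etoposide 2 or 3 were called higher, and 1 lower except with DESeq2 and with the length trend taken out, where 2 were called lower, TGFBI being the second. The cause was not tested. Of 630 values of the markers, 611 kept their direction and side of the threshold, 12 lost a call, 7 gained one and 0 reversed. With counts rebuilt from TPM, PDGFC went to 0.32 (adjusted p = 0.00444) with etoposide and 0.39 (adjusted p = 0.00200) with tozasertib, and MST1R with tozasertib to -0.18 (adjusted p = 0.817) from 1.28. The same setting took ERBB3 between the drugs from 1.41 to 0.33 (adjusted p = 0.421). Over all genes, 1895 were called between the drugs, but 1119 with counts rebuilt from TPM, 3552 in the fit of 2 groups, 3399 without DMSO replicate 1, 1036 and 1075 without tozasertib replicate 1 or 2, and 3754 without both DMSO libraries of the length trend. The share called higher there was 51% (966 higher, 929 lower), and went to 40.7% with DESeq2 (1021, 1488), to 36.8% with the length trend taken out (1035, 1775), to 43% with the size factors of DESeq2 in edgeR and to 58.4% with library size alone. Library size alone moved the median of all genes to 0.11 with tozasertib against DMSO. The deviations of samples with the same replicate number from their group means had correlations of -0.097 to 0.23. Between etoposide and tozasertib these were 0.23 for replicate 1, 0.091 for replicate 2 and 0.12 for replicate 4. Pairs of samples with different numbers had correlations of -0.207 to 0.161. The labels do not call the numbers a batch, so the main fit did not pair them, and a shared batch was not tested. With a replicate block the calls of the markers were 5 higher and 4 lower with each drug, and 2 and 1 between the drugs, so no count of marker calls moved, and all genes gave 4675 higher and 5183 lower with etoposide. PDGFRB, with 34 to 103 reads per sample, is the marker that depth limits most.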

Other observations

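Markers of Schwann cells, another neural crest lineage that carries NGFR, were measured too. Of 7 markers 6 were tested, with 2 higher and 1 lower with etoposide, 4 higher and 1 lower with tozasertib, and 3 higher with tozasertib than with etoposide. S100B, a calcium-binding protein of these cells, rose by 0.90 with etoposide and 1.49 with tozasertib on the log2 scale, in edgeR. Its mean levels were low, at 1.17 CPM in DMSO, 2.18 with etoposide and 3.30 with tozasertib. The lower gene with each drug was ERBB3, with means of 19.8, 2.12 and 5.69 CPM. CDH19, which had the highest DMSO mean of these markers, was called with neither drug (38.5 ± 4.07, 33.0 ± 9.27 and 41.6 ± 7.07 CPM, SD).

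PMEL, a structural protein of the melanosome, was at a low level, with 0.276, 0.603, 0.186 and 0.235 CPM in DMSO, 0.463, 0.549, 0.253 and 0.348 with etoposide and 4.14, 3.25 and 4.14 with tozasertib. Every tozasertib sample lay above every other sample (3.25 against etoposide, adjusted p = 2.25e-05). MLANA stayed at 0 reads in all of these samples, and DCT had 11 reads in DMSO, 15 with etoposide and 41 with tozasertib.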
